A study of Mus musculus with 1 sample.

Results

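The chymotrypsin and elastase zymogens of the mouse pancreas were examined as a family of 7 genes chosen by symbol among the 32285 listed genes. The chymotrypsin branch holds *Ctrb1*, *Ctrl* and *Ctrc*, and the elastase branch holds *Cela1*, *Cela2a*, *Cela3a* and *Cela3b*. The study deleted *Scap*, which encodes a scaffold needed to activate the SREBP transcription factors, in the pancreas. The data used here are 1 droplet library of the *Scap* f/f genotype, in which *Scap* is floxed but no Cre recombinase is present, for which pancreata of 5 to 6 animals at 2 weeks of age were pooled. The library with pancreatic loss of *Scap* was not analysed here, so no effect of the genotype can be given. Because the animals were pooled into 1 library, no test between animals was possible, and each interval given below covers counting error only.

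These zymogens are inactive precursors of serine proteases that pancreatic acinar cells make, pack into zymogen granules and release into the ducts. In the gut lumen, trypsin cuts off a short propeptide and the enzymes become active. Chymotrypsins cut after large aromatic side chains, while the elastases mostly cut after small or aliphatic ones. All members lie on the reverse strand of the mouse genome build GRCm38, by the GENCODE M21 annotation. *Ctrb1*, chymotrypsinogen B, is at chr8:111686519-111691010, and *Ctrl*, a chymotrypsin-like protease, is on the same chromosome at chr8:105932003-105933862. *Cela1* is at chr15:100674421-100687921. The other members lie on chromosome 4, with *Cela3a* at chr4:137401554-137409791 and *Cela3b* at chr4:137420999-137430540, 11207 bp apart. *Cela2a* is at chr4:141814962-141826160, inside the longer *Ctrc* model at chr4:141814962-141846359. The models of *Ctrc* and *Cela2a* share 305 of the 1723 exonic bases of *Cela2a* (17.7%), and RefSeq lists mouse *Ctrc*, named for chymotrypsin C, as a transcribed pseudogene. On the reverse strand the 2 models end at the same 3′ coordinate, chr4:141814962. How the authors' counting divided reads from the shared exon was not tested. The *Ctrc* and *Cela2a* values below, and the sums and shares that hold them, are therefore uncertain beyond their counting intervals.

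Acinar enzyme genes are known targets of PTF1, a complex of PTF1A, an E protein and RBPJ or RBPJL that binds an E-box together with a second short box. The 250 bases before the RefSeq start sites are shown for the members with the highest levels (*Ctrb1* and *Cela2a*) and for the *Cela3* pair, whose levels differed most between close copies. They are written 5′ to 3′ along the gene on the reverse strand, and capitals mark matches to the E-box CANNTG and to the RBPJ box TGGGAA on either strand (TTCCCA). They lie at chr8:111691011-111691260 for *Ctrb1*, chr4:141826006-141826255 for *Cela2a*, chr4:137430521-137430770 for *Cela3b* and chr4:137409792-137410041 for *Cela3a* in GRCm38.p6, and those of *Cela2a* and *Cela3b* reach into the longer GENCODE models.
Ctrb1: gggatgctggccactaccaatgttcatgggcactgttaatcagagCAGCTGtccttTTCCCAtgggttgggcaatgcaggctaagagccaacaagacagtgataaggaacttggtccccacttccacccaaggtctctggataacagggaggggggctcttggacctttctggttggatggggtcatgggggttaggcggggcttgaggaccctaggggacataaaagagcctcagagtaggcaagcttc
Cela2a: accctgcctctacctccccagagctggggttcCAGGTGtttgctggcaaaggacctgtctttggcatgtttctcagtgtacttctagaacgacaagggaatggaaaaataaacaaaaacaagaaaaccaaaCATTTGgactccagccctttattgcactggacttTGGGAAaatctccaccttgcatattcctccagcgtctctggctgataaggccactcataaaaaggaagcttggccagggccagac
Cela3b: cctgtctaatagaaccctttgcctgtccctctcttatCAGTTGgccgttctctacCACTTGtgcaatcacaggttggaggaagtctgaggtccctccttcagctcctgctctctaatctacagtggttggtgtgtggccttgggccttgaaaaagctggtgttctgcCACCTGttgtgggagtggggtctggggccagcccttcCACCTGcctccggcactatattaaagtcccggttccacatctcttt
Cela3a: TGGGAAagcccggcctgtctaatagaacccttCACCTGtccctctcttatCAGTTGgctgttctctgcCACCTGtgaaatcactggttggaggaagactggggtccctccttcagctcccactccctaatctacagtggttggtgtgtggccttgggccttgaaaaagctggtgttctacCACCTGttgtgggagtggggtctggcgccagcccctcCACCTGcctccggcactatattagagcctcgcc
The RefSeq promoter table held 6 of the 7 members, all but *Ctrc*. An E-box was present in 6 of 6, and in 66.2% of the 32851 promoters of the table searched over the same length. The RBPJ box was found in 4 of 6 (*Ctrb1*, *Ctrl*, *Cela2a* and *Cela3a*), against 21.6% of all promoters. The E-box form CACCTG or CAGGTG, which is counted within CANNTG, was found in 5 of 6, against 17.2%. The *Cela3* windows were 83.3% identical over 263 aligned positions, and the box that starts the *Cela3a* window had no match in the *Cela3b* window, which begins further along the aligned sequence and does not cover that position. A match of letters is a description and does not show that the complex binds there.

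The library held 51540177 UMIs, each marking 1 captured transcript, in 11789 barcodes, the median barcode holding 2483 and the range running from 500 to 174899. Retained were the 10947 barcodes (92.9%) above 800 and below 100000 UMIs whose mitochondrial share was under 15%. Acinar barcodes were those in which *Ctrb1*, *Pnliprp1*, *Clps*, *Reg1*, *Cela2a*, *Cpa1*, *Cela3b* and *Cpb1* together made up at least 10% of UMIs, and 1348 barcodes met this limit (12.3%). The gate sum holds 3 members, so the levels of *Ctrb1*, *Cela2a* and *Cela3b* within the gate are descriptions. A gate of the 5 enzymes that are no members, at 5% of UMIs, gave a sum of the 7 members of 155007 UMIs per 1000000 (CPM), against 156881 (156678 to 157084) in the gate used here. Of the acinar transcription factors, *Ptf1a* was at 57.5 CPM in the gate against 0.532 CPM in barcodes with *Ptprc*, and *Rbpjl* at 207 against 7.09 CPM, while *Gata6* did not mark the gate, at 36.2 against 33.7 CPM. *Ptprc*, the leukocyte gene CD45, had a UMI in 14.9% of acinar barcodes, and its part in the results was not tested beyond the values without these barcodes. The gate has no gap at its limit, since 63 barcodes lay between 10% and 12% and 59 between 8% and 10%, with zymogen shares of 5.36% and 4.36% of UMIs.

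Acinar barcodes carried 95.2% of all zymogen UMIs of the retained barcodes, and zymogens made up 15.7% of the acinar UMIs. The gate sum counts *Ctrb1*, *Cela2a* and *Cela3b*, and all other retained barcodes lie under its limit. The gate itself therefore raises both values, which are descriptions. The count is of 3′ ends, so levels of different genes were compared without scaling by length. The chymotrypsin branch was led by *Ctrb1* at 84535 CPM (84386 to 84684), with *Ctrl* at 8230 CPM (8183 to 8276) and *Ctrc* at 2303 CPM (2279 to 2328). In the elastase branch, *Cela2a* reached 27803 CPM (27718 to 27889), *Cela1* 18190 CPM (18121 to 18259) and *Cela3b* 15811 CPM (15746 to 15875). The descending order was therefore *Ctrb1*, *Cela2a*, *Cela1*, *Cela3b*, *Ctrl*, *Ctrc* and *Cela3a*, and no neighbors in this order had overlapping counting intervals. *Cela1* RNA was thus abundant in these mouse acinar barcodes, although the human gene is known to be silent in acinar cells. *Ctrb1*, *Cela1*, *Cela2a*, *Cela3b* and *Ctrl* each had a UMI in at least 99.4% of acinar barcodes, and *Ctrc* in 96.1%. After each barcode was thinned to 800 UMIs, *Ctrc* was still detected in 76.0% of acinar barcodes and *Ctrl* in 94.2%.

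**Figure D1:**
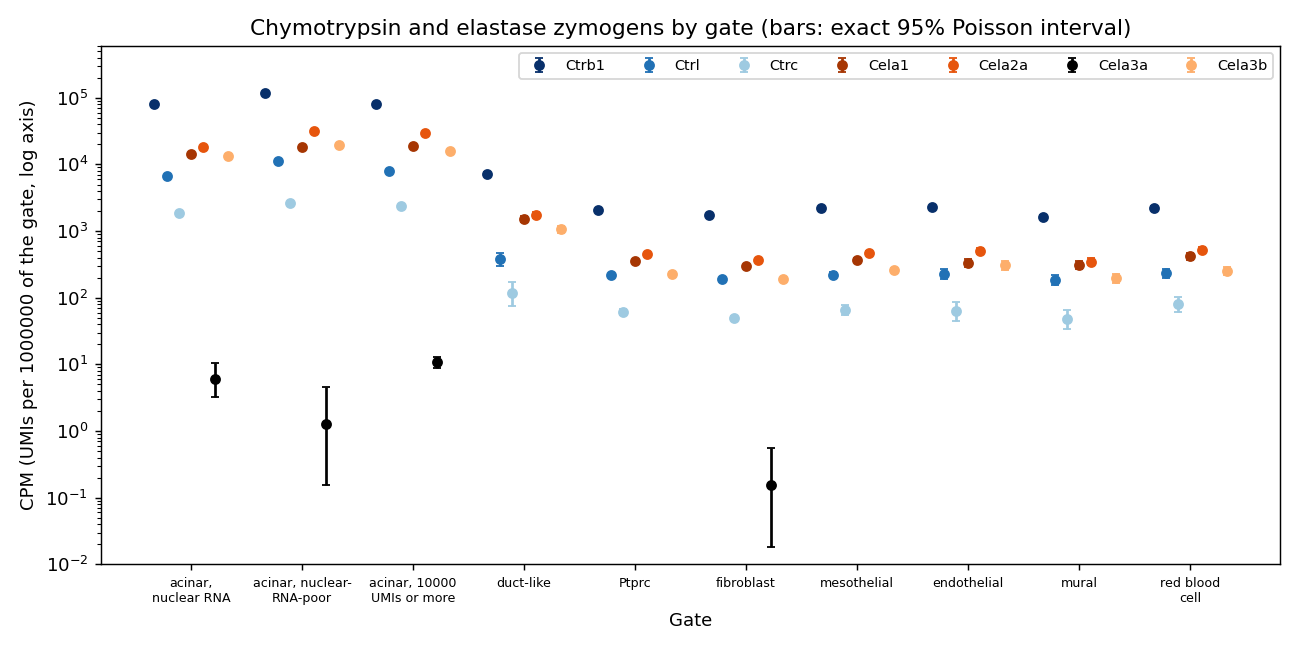
Levels of the 7 members in UMIs per 1000000 UMIs of the gate (log axis) for 10 gates, with points for the pooled value and bars for the exact 95% Poisson interval. The acinar gates sit above all others for the 6 members other than *Cela3a*, *Ctrb1* leads in each gate, and *Cela3a* is drawn only where it had a UMI.

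*Cela3a* stood apart from its neighbor *Cela3b*. Acinar barcodes held 132 *Cela3a* UMIs against 231663 of *Cela3b*, or 9.01 CPM (7.54 to 10.7), a level of *Cela3b* 1755-fold higher (1480 to 2098). *Cela3a* had a UMI in 72 of 1348 acinar barcodes, 63 of them among the 384 with 10000 UMIs or more, and no barcode held more than 7. The transcripts of the pair were 89.5% identical over 968 aligned positions, and their last 400 bases, where 3′ reads fall, were 76.0% identical. Of the 311 windows of 90 bases in that end of *Cela3b*, 27 were found whole in the *Cela3a* transcript. Reads from such windows cannot be assigned to 1 of the pair, and how the counting treated them was not tested, so the low *Cela3a* count is uncertain. Outside the acinar gate *Cela3a* had 6 UMIs among all retained barcodes.

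To set a reference for RNA that enters droplets from outside the cell, zymogens were counted in barcodes with a *Ptprc* UMI and an enzyme sum under 10%, since leukocytes are not known to make these enzymes. In these 1745 barcodes, with a median of 2094 UMIs against 4410 in the acinar gate, the 7 members summed to 3361 CPM (3313 to 3409). Of the 1745, 330 also met the markers of another class, and the 1415 that did not were at 3424 CPM (3363 to 3485). *Ctrb1* had a UMI in 97.2% of the 1745 before thinning and in 77.0% after thinning, at 2045 CPM (2008 to 2083). *Cela3a* had 0 UMIs in 5639202, for which 3 counts would give 0.532 CPM. Detection of a *Ctrb1* UMI therefore did not mark a barcode as acinar. Per barcode, the *Ctrb1* share of UMIs ran from 1.05% to 32.0% in the acinar gate and from 0% to 3.10% in *Ptprc* barcodes, so the ranges overlapped although the gate sum counts *Ctrb1*. The acinar level was 41.3-fold higher for *Ctrb1* (40.6 to 42.1), 37.7-fold for *Ctrl* (35.6 to 39.9) and 37.5-fold for *Ctrc* (33.8 to 41.8). Among elastases it was 51.3-fold higher for *Cela1* (49.1 to 53.6), 61.4-fold for *Cela2a* (59.0 to 63.8) and 69.3-fold for *Cela3b* (65.6 to 73.2). The ratios of the branches did not overlap, with 40.9 (40.2 to 41.6) for the summed chymotrypsins and 59.7 (58.2 to 61.2) for the summed elastases. This gap holds for acinar barcodes pooled over all depths. At 800 to 2000 UMIs, chymotrypsins made up 70.0% of acinar zymogen UMIs, against 69.2% in *Ptprc* barcodes. All 7 members were at least 10-fold higher in acinar barcodes, *Cela3a* against the limit of 3 counts, as were 2.41% of the 12611 genes compared. The gate sum itself raises *Ctrb1*, *Cela2a* and *Cela3b*, and 4 of the 7 lie outside it. Of these 4, *Cela3a* reached the 50 UMIs needed to be compared through its acinar UMIs alone. The count of 7 is therefore a description.

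The make-up of the zymogen UMIs differed in the pooled values. Chymotrypsins made up 60.6% (60.5 to 60.7) of zymogen UMIs in acinar barcodes and 69.2% (68.5 to 69.8) in *Ptprc* barcodes. The acinar value was led by deep barcodes. Nearer to the depth of the *Ptprc* barcodes, the acinar share was 70.0% (69.5 to 70.5) at 800 to 2000 UMIs and 66.7% (66.5 to 66.9) at 2000 to 5000, and it was 65.9% over all acinar barcodes under 10000. *Cela3b* made up 10.1% (10.0 to 10.1) and 6.79% (6.44 to 7.16), and *Cela2a* made up 17.7% (17.7 to 17.8) and 13.5% (13.0 to 14.0). The share was also 69.2% in the 1415 *Ptprc* barcodes that met no other class. The profile of *Ptprc* barcodes was close to that of other classes that should lack these enzymes. Their chymotrypsin share was 70.2% in fibroblasts (*Pdgfra* and another marker) and 68.2% in red blood cells. Against all secreted enzymes, zymogens were 38.1% of enzyme UMIs in acinar barcodes and 34.2% (33.8 to 34.6) in *Ptprc* barcodes.

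**Figure D2:**
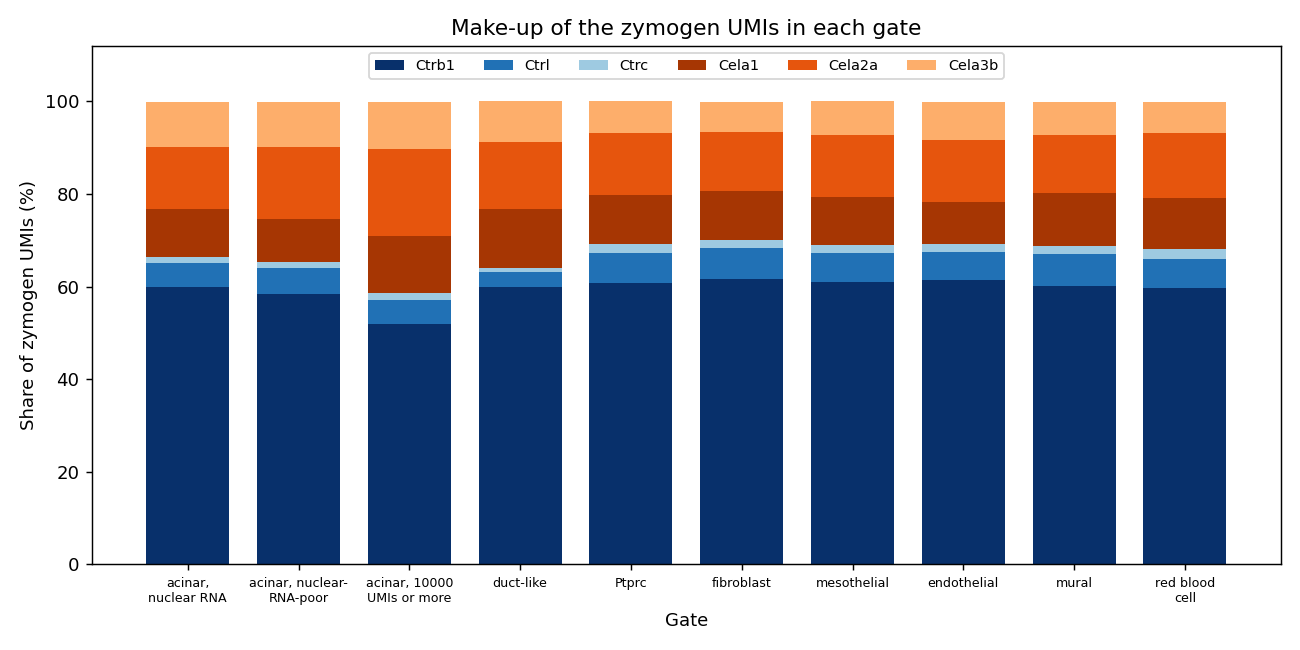
Stacked bars of the share of each member in the zymogen UMIs (%) of 10 gates, leaving out *Cela3a*, whose share is too small to draw. The elastase part is largest in acinar barcodes of 10000 UMIs or more, where chymotrypsins make up 58.7%, and chymotrypsins make up 69.2% in *Ptprc* barcodes.

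The number of zymogen UMIs per droplet outside the acinar gate rose with depth, but less than in proportion to it. Across quartiles of *Ptprc* barcodes by depth, with medians of 1078, 1651, 2698 and 5548 UMIs, the median barcode held 4, 6, 8 and 13 zymogen UMIs. The level fell from 5030 CPM (4828 to 5237) in the shallowest quartile to 2782 CPM (2725 to 2840) in the deepest. Fibroblast barcodes gave medians of 4, 6, 9 and 14 zymogen UMIs, and their level fell from 3916 CPM (3810 to 4025) to 2410 CPM (2372 to 2448). Zymogen levels in endothelial, mesothelial, mural, Schwann and red blood cell barcodes lay in the same range, from 2728 CPM in mural to 3759 CPM in red blood cell barcodes.

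**Figure D3:**
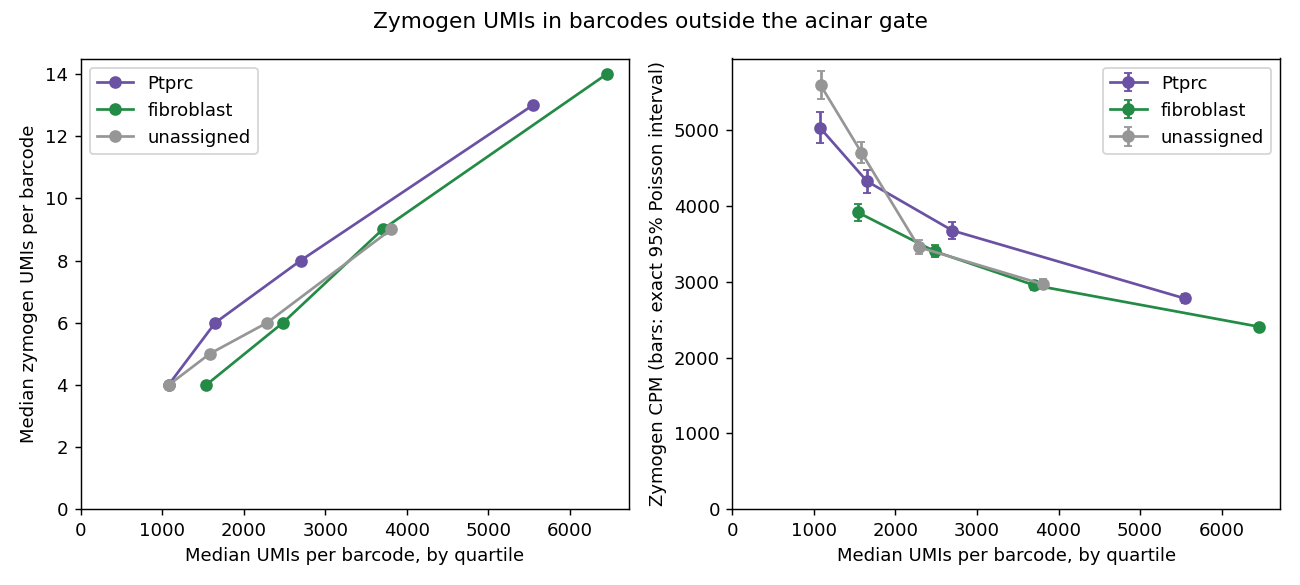
Median zymogen UMIs per barcode (left) and zymogen CPM with exact 95% Poisson intervals (right) against the median depth of each quartile, for *Ptprc*, fibroblast and unassigned barcodes. Counts per barcode rise with depth in all 3 classes while the level per 1000000 UMIs falls.

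Duct-like cells, the epithelium that carries the secreted zymogens, were few. The gate of at least 4 duct genes left 27 barcodes, of which *Spp1* was detected in 27, *Sox9* in 26, *Krt18* in 26 and *Epcam* in 24, but *Krt19* in 13, *Krt7* in 8, *Cftr* in 6, *Cldn4* in 5 and *Tspan8* in 1. Of the acinar factors, *Ptf1a* was detected in 0 and *Rbpjl* in 5 of the 27, the latter at 62.6 CPM against 7.09 CPM in *Ptprc* barcodes and 207 CPM in acinar ones. *Bhlha15* (4.47 against 53.0 CPM), *Gata4* (40.3 against 102 CPM) and *Xbp1* (125 against 222 CPM) were also lower than in acinar barcodes. *Nr5a2* and *Gata6* went the other way, at 412 and 246 CPM against 156 and 36.2 CPM in acinar barcodes. They held 980 to 43784 UMIs with a median of 5373. Their pooled zymogen level was 12026 CPM (11575 to 12489), 3.58-fold that of *Ptprc* barcodes (3.44 to 3.73). *Ctrb1* was at 7212 CPM (6864 to 7573), *Cela2a* at 1736 CPM (1567 to 1917) and *Ctrl* at 376 CPM (300 to 465). Most of this came from few barcodes. The share of zymogens ran from 0.0851% to 4.54% of UMIs with a median of 0.316%, and the 7 barcodes with an enzyme sum of 2% or more held 86.1% of the zymogen UMIs. The other 20 barcodes were at 2450 CPM (2208 to 2711), against 2652 CPM (2609 to 2695) in *Ptprc* barcodes under the same limit of 2%, which was chosen after seeing the data. That limit counts *Ctrb1*, *Cela2a* and *Cela3b*, so it sets a low zymogen level in both sets, which also differ in depth, and nothing is drawn from their likeness. Under the gate of the 5 other enzymes the pooled duct-like level was 4566 CPM.

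Acinar barcodes were then divided by depth and by nuclear RNA. Below 10000 UMIs, 541 barcodes had *Malat1*, *Neat1* and *Kcnq1ot1* at 0.2% or more of the UMIs that are not of the 8 gate enzymes, and 423 barcodes had less and are called nuclear-RNA-poor. The latter had a median of 3233 UMIs and 710 genes, against 3308 UMIs and 1141 genes. Their zymogen level was 201411 CPM (200706 to 202118), against 135580 CPM (135086 to 136075) with nuclear RNA. *Ctrb1* was at 117629 CPM against 81389, a ratio of 1.45 (1.44 to 1.45), *Ctrl* at 11363 against 6785, a ratio of 1.67 (1.64 to 1.71), and *Ctrc* at 2626 against 1848, a ratio of 1.42 (1.36 to 1.48). *Cela2a* was at 31467 CPM against 18148, a ratio of 1.73 (1.71 to 1.76). *Cela3b* was at 19807 CPM against 13262, a ratio of 1.49 (1.47 to 1.52), and *Cela1* at 18518 against 14142, a ratio of 1.31 (1.29 to 1.33). All 6 members compared were thus higher in the nuclear-RNA-poor barcodes. Of the 6, 2 were at least 1.5-fold higher, *Ctrl* and *Cela2a*, against 0.757% of the 5941 genes compared. *Cela2a* is in the gate sum, so 1 of these 2 lies outside it. The members had a median ratio of 1.47 and all genes one of 0.533. The zymogen sum gave a ratio of 1.49 (1.48 to 1.49). The 5 enzymes that are no members gave a slightly higher one of 1.52 (1.51 to 1.52). Of all enzyme UMIs, zymogens were 39.1% (39.0 to 39.2) in nuclear-RNA-poor barcodes and 39.0% (38.9 to 39.2) with nuclear RNA. Their share of all enzyme UMIs thus did not differ beyond counting error, while their level against the 5 enzymes was slightly lower. *Cela3a*, not compared because it had under 50 UMIs, had 2 and 13 UMIs and went the other way, at a ratio of 0.211 (0.0231 to 0.931). Where the acinar gate was set at 30% of UMIs, the ratio of the zymogen sum was 1.20.

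**Figure D4:**
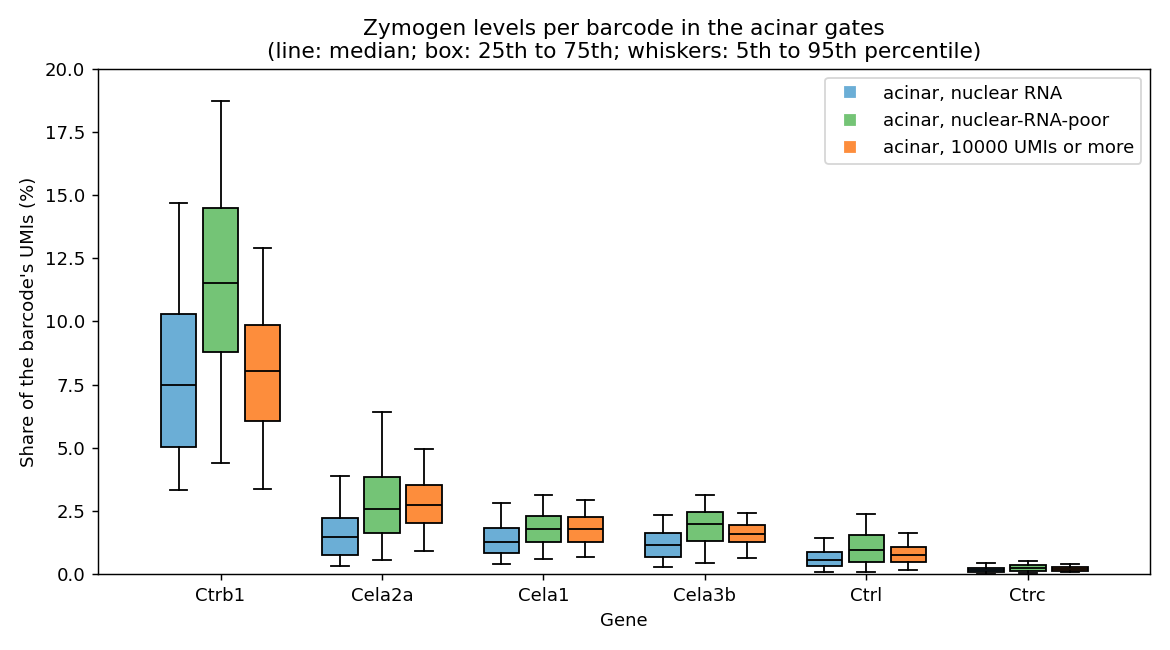
Share of each barcode's UMIs (%) taken by 6 members in the 3 acinar gates, with the median, the 25th to 75th percentile box and whiskers from the 5th to the 95th percentile. The median of *Ctrb1* is 11.5% in nuclear-RNA-poor barcodes against 7.47% with nuclear RNA and 8.04% at 10000 UMIs or more, and the ranges of the gates overlap for every member.

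The 384 acinar barcodes with 10000 UMIs or more had a median of 22124 UMIs and 4174 genes, and held 70.3% of all zymogen UMIs, so they lead any value pooled over the acinar gate. They were not limited by nuclear RNA, and 24 of those under 20000 UMIs were poor in it. Their zymogen level was 154708 CPM (154475 to 154941), below the 163351 CPM (162939 to 163764) of all acinar barcodes under 10000 UMIs. The direction of the gap with depth therefore depends on the shallower set used. Compared with the shallower nuclear-RNA barcodes, the summed branches differed, although most of the chymotrypsin sum was *Ctrb1*. The summed chymotrypsins gave a ratio of 1.01 (1.00 to 1.01), and *Ctrb1* gave 0.989 (0.983 to 0.994). The summed elastases gave 1.40 (1.39 to 1.41), with 1.61 (1.59 to 1.62) for *Cela2a*, 1.34 (1.32 to 1.35) for *Cela1* and 1.19 (1.17 to 1.20) for *Cela3b*. *Ctrl* at 1.19 (1.17 to 1.21) and *Ctrc* at 1.27 (1.23 to 1.31) did not follow *Ctrb1*, and neither lay below *Cela3b*. Among the 5 enzymes that are no members, ratios ran from 0.915 for *Clps* to 1.39 for *Reg1*. At least 1.5-fold higher were 2 of 7 members, *Cela2a* and *Cela3a*, against 10.1% of 10632 genes, and *Cela3a* rested on 117 and 13 UMIs with an interval of 0.983 to 3.38. The ratio of the whole sum was 1.14 (1.14 to 1.15), and it turned to 0.964 (0.959 to 0.969) with the acinar gate at 30%. *Ptprc* had a UMI in 83 of these barcodes and in 98 of the shallower ones, and the ratio was 1.12 without them.

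The chymotrypsin share fell, and the *Cela2a* share rose, from each bin of depth to the next. From acinar barcodes of 800 to 2000 UMIs to those of 40000 to 100000, the chymotrypsin share fell through 70.0%, 66.7%, 64.4%, 61.1%, 58.4% and 57.8% of zymogen UMIs. The share of *Cela2a* rose from 11.3% (11.0 to 11.7) to 19.4% (19.3 to 19.5), while the other elastases took no single course. *Cela1* stood at 10.0%, 9.89% and 9.64% in the bins below 10000 UMIs and then rose to 13.1% (13.1 to 13.2) in the deepest, and *Cela3b* went from 8.66% to 10.7% at 20000 to 40000 UMIs and back to 9.65%. The share of *Ctrl* stayed between 5.00% and 5.50%, and that of *Ctrc* went from 1.30% to 1.56%. The fall in the chymotrypsin share was thus that of *Ctrb1*, from 63.7% to 51.1%. On the CPM scale *Cela2a* rose from 13685 to 31252, while *Ctrb1* went from 76914 to 102392 at 2000 to 5000 UMIs and stood at 82349 in the deepest bin. Among barcodes with nuclear RNA, the chymotrypsin share fell from 71.1% (70.5 to 71.7) to 57.8% (57.7 to 57.9) over the same bins. Among nuclear-RNA-poor barcodes, of which only 24 lay between 10000 and 20000 UMIs, it fell from 67.9% (67.0 to 68.8) to 61.0% (60.6 to 61.4), and the *Cela1* share did not rise, with 10.0%, 9.38%, 8.78% and 9.62%. The gate of the 5 other enzymes gave 70.0% and 57.8%. Per barcode, the Spearman correlation with depth over 1348 barcodes of 1 library was -0.43 for the *Ctrb1* share and 0.41 for the *Cela2a* share. The shallowest bins lie near the 69.2% of *Ptprc* barcodes, and the part of outside RNA in the shift was not tested.

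**Figure D5:**
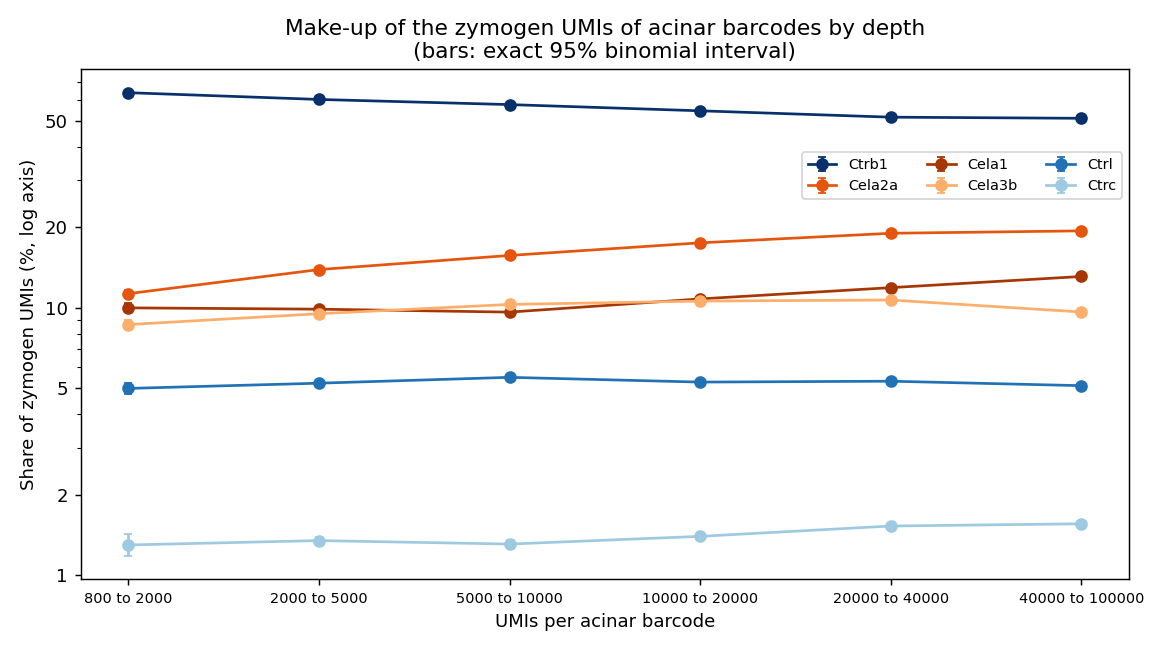
Share of 6 members in the zymogen UMIs (%, log axis) of acinar barcodes in 6 bins of depth, with exact 95% binomial intervals. *Ctrb1* declines from 63.7% to 51.1% while *Cela2a* climbs from 11.3% to 19.4%, and *Ctrl* is nearly level.

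Individual barcodes differed in their zymogen make-up by more than counting error. In the 384 deep barcodes, the share of *Ctrb1* in zymogen UMIs ran from 40.9% at the 5th to 65.3% at the 95th percentile, a 1.60-fold range. *Ctrl* had the widest range among members other than *Cela3a*, from 1.17% to 9.03%, or 7.71-fold, and *Cela3b* the narrowest among the elastases other than *Cela3a*, from 6.93% to 15.2%, or 2.19-fold. The variance across barcodes was 84.7 times that of multinomial sampling for *Ctrb1*, 65.0 times for *Cela1*, 48.7 times for *Ctrl*, 23.9 times for *Cela3b* and 10.6 times for *Ctrc*. Levels of the members were positively correlated in all 15 pairs without *Cela3a*, from 0.21 (*Ctrl* with *Ctrc*) to 0.56 (*Ctrb1* with *Cela3b*) in the deep gate. All barcodes share 1 library and each level shares the barcode's total, so these correlations are descriptions.

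Across all retained barcodes, zymogen levels followed those of other secreted enzymes. The barcodes were first binned by the summed share of *Pnliprp1*, *Clps*, *Reg1*, *Cpa1* and *Cpb1*, none of which is a member. These bins mix cell classes, with 8985 of the 10947 barcodes in the lowest bin, so the rise across them also spans non-acinar and acinar barcodes. The zymogen level rose from 2342 CPM (2325 to 2358) where these enzymes were under 1% of UMIs to 28076 CPM (27710 to 28445) at 2% to 5%, 112861 CPM (112403 to 113319) at 10% to 15% and 224866 CPM (223087 to 226656) at 30% or more. The ratio to the enzymes themselves moved little, from 0.709 zymogen UMIs per UMI of the 5 enzymes in the lowest bin to 0.886 at 5% to 10% and 0.713 in the 65 barcodes at 30% or more. Within the family, the *Cela3b* share rose from 6.27% (6.10 to 6.45) in the lowest bin to 10.3% (10.1 to 10.6) in the highest, while *Ctrl* stood at 7.30% (7.12 to 7.49), 4.43% (4.16 to 4.70) at 2% to 5% and 6.24% (6.05 to 6.43) in the highest. Across the 964 acinar barcodes below 10000 UMIs, the genes whose level was most like the zymogen sum among 1106 genes were *Prss2*, a trypsinogen (Spearman 0.80), *Pnliprp1*, a pancreatic lipase-related protein (0.77), the trypsinogen-like *2210010C04Rik* (0.77), *Cpa1*, a carboxypeptidase (0.74), and *Reg1* (0.74). At the other end were *Actb* (-0.60), *Tmsb10* (-0.58), *Malat1* (-0.56), *Fos* (-0.53) and *mt-Co2* (-0.53). *Pnliprp1*, *Cpa1* and *Reg1* are in the gate sum, and each level shares the barcode's total. The 964 barcodes also mix those with nuclear RNA and those poor in it. Both ends of this ranking are therefore descriptions. The nearest gene differed between some members. It was *Prss2* for *Ctrb1* (0.75) and *Ctrc* (0.55) and *Pnliprp1* for *Ctrl* (0.62) and *Cela3b* (0.79). For *Cela2a*, *Reg1* and *Prss2* were level at 0.73, and for *Cela1*, *Tff2* and *Pnliprp1* were level at 0.62.

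Genes around the zymogens in their pathway were counted against the same limit of 10-fold between acinar and *Ptprc* barcodes, which 2.41% of genes passed. Of 12 trypsinogens and activating proteases, 9 passed. *Prss2* was at 24712 CPM against 703, while the lysosomal protease *Ctsb*, known to cut trypsinogen, was at 99.5 against 140 CPM. Of 11 protease inhibitors, 6 had under 50 UMIs and 2 of the other 5 passed. They were *Spink1*, the trypsin inhibitor of the granule, at 4912 against 141 CPM, and *Serpini2* at 768 against 13.5 CPM. Of 12 other secreted enzymes 11 passed, as did 6 of 6 granule proteins, but *Cpa1*, *Cpb1*, *Pnliprp1* and *Clps* of the first list and *Reg1* of the second are in the gate sum, which sets their result. *Pnlip*, the main triglyceride lipase of the adult pancreas, was at 53.1 CPM, below its relative *Pnliprp1* at 49223 CPM. Of 7 acinar transcription factors 5 passed. Of 6 serine and related proteases of leukocytes 1 passed, the mast cell carboxypeptidase gene *Cpa3* at 99.5 against 6.92 CPM, while the neutrophil elastase gene *Elane* was at 0.478 against 25.4 CPM.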

How the data were processed

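One library of pancreatic cells was analysed. Per the study's methods and the labels, the authors digested the tissue with collagenase, depleted dead cells, prepared a 3′ droplet library and aligned reads to a mouse reference. The submitters' processing notes name Cell Ranger 7.1.0 and build mm10. The authors deposited raw UMI counts for each gene in each called barcode, with no scaling, including barcodes outside the limits of the study's methods, and no ambient RNA removal was repeated.

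UMIs were summed per gate and scaled to 1000000 (CPM) with exact 95% Poisson intervals. Shares have Clopper-Pearson intervals and ratios of CPM exact conditional ones. All were tested on simulated Poisson or binomial counts. These have no spread between barcodes beyond counting error, so the simulation does not cover such spread. A count of 0 was set against 3 counts. Genes with at least 50 UMIs in the compared gates together entered the counts of genes. Other classes were called from marker genes with an enzyme sum under 10%, at least 2 markers for most. Barcodes meeting several classes (941) or none (2517) were kept apart from these other classes. The *Ptprc* set still held 330 of the 941, since it took every barcode with a *Ptprc* UMI and an enzyme sum under 10%. Doublets were kept, and Scrublet (scanpy 1.11.5, expected rate 0.08, threshold 0.258) marked 537 barcodes (4.91%), among them 106 acinar ones, which were left out as an alternative. Python 3.11.15, numpy 2.4.6, scipy 1.17.1, pandas 2.3.3, matplotlib 3.10.9 and Biopython 1.88 were used.

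All 7 members are named whatever their values. Other genes come from pathway lists, the 5 genes most correlated with the sum or a member, and the lowest 5. Members and lists were chosen with earlier results of these data known. GENCODE M21 is not the annotation the reads were counted on, but identifiers of all 7 members matched. Promoters are from RefSeq (GRCm38.p6). The alternatives were other UMI, mitochondrial, enzyme, *Ptprc* and nuclear RNA limits, removal of doublets, and means over barcodes. Acinar barcodes held 14652335 UMIs in all, *Ptprc* barcodes 5639202 and duct-like barcodes 223525.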

Additional observations from a re-analysis of the deposited data

Results flagged for a closer look

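The 752 barcodes with 800 or fewer UMIs, which no comparison used, held zymogens at 11708 CPM (11408 to 12014), above the 3361 CPM of *Ptprc* barcodes. They had a median of 662 UMIs, and 34 of them (4.52%) met the enzyme limit of the acinar gate. Without these the level was 7460 CPM (7215 to 7710). *Ptprc* barcodes were deeper, with a median of 2094 UMIs, and their shallowest quartile, with a median of 1078, was at 5030 CPM (4828 to 5237). Unlike *Ptprc* barcodes, those of 800 or fewer UMIs were under no mitochondrial or enzyme limit. The part of depth in the gap was not tested. The median barcode of 800 or fewer UMIs had zymogens at 0.543% of UMIs, and chymotrypsins made up 67.2% (66.0 to 68.4) of the zymogen UMIs. That lay between the 60.6% of all acinar barcodes and the 69.2% of *Ptprc* barcodes. It was below the 70.0% (69.5 to 70.5) of acinar barcodes of 800 to 2000 UMIs.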

How the results depend on the processing

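Over the whole acinar gate, the zymogen level stayed far higher than in *Ptprc* barcodes, and the chymotrypsin share lower, under every alternative run. The lower share did not hold at every depth. It was 70.0% (69.5 to 70.5) in acinar barcodes of 800 to 2000 UMIs, against 69.2% (68.5 to 69.8) in all *Ptprc* barcodes. The ratio of deep barcodes to shallower nuclear-RNA barcodes turned under 1 alternative. Against all acinar barcodes under 10000 UMIs, the deep level was lower, at 154708 against 163351 CPM. With the upper limit of 10000 UMIs, the acinar, *Ptprc* and duct-like levels were 163351, 3627 and 7849 CPM and the acinar chymotrypsin share 65.9%, and no ratio for deep barcodes could be given. The mitochondrial limit of 5% gave 158333 (acinar) and 13517 CPM (duct-like), a nuclear-RNA-poor ratio of 1.47 and a deep ratio of 1.13. The 5-enzyme gate gave 155007, 3223 and 4566 CPM in acinar, *Ptprc* and duct-like barcodes and ratios of 1.52 and 1.17. At an enzyme sum of at least 30%, the acinar level was 183224 CPM, the ratios were 1.20 and 0.964, a reversal, and the share was 60.7%. The cause was not tested. At least 2 *Ptprc* UMIs gave 2998 CPM. Nuclear RNA limits of 0.1% and 0.5% gave ratios of 1.47 and 1.44 (poor) and 1.08 and 1.21 (deep). Without doublets the acinar and *Ptprc* levels were 159553 and 3253 CPM, the ratios 1.46 and 1.12 and the share 60.5%. Means over barcodes gave 4038 CPM (*Ptprc*), 9065 CPM (duct-like), a deep ratio of 1.18 and a share of 64.7%. Of the alternatives chosen after seeing the data, an enzyme sum under 2% gave 2652 CPM (*Ptprc*), 2450 CPM (duct-like) and a *Ptprc* chymotrypsin share of 70.0%, and leaving out acinar barcodes with a *Ptprc* UMI gave a deep ratio of 1.12 and a share of 60.9%. No paired analysis was possible because the series has 1 library here, and for the same reason no replicate could be left out. Depth limits the values of small classes, since 3 counts equal 13.4 CPM in duct-like, 25.2 in Schwann and 35.3 in endocrine barcodes.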

Other observations

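Barcodes that met the markers of several classes, 941 in number, held zymogens at 3669 CPM (3625 to 3714), and the 2517 that met none at 3666 CPM (3618 to 3715). The 5 endocrine barcodes held 145 zymogen UMIs, or 1707 CPM (1441 to 2009), and chymotrypsins made up 77.9% (70.3 to 84.4) of them. The antisense gene *Ctrcos* had 3 UMIs in all, against 35670 of *Ctrc*. The 5 barcodes with the most *Cela3a* UMIs, at least 5 each, held 28 of the 132 acinar UMIs of that gene.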
